A study of Mus musculus with 5 samples.

Results

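The genes described here are 10 regulators of the primed epiblast and of the germ layers that follow it: Otx2, Pou3f1, T, Eomes, Mixl1, Nodal, Lefty1, Lefty2, Gata4 and Gata6. They were chosen by name, and each was read from the probe sets that the platform table assigns to that gene and no other. Such a probe set was found for 9 of the 10 genes, 1 each, among 19938 genes and 28853 probe sets in all. T (brachyury, Entrez Gene 20997) had none and was not analysed here.

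The study measured total RNA from 5 mouse cell samples on whole-transcript arrays, 1 array per group. The groups were embryonic stem cells (ESCs) labelled 2i ESCs and S ESCs, and embryonic fibroblasts (MEFs) labelled 4n 2i, 2n 2i and control. All 5 came from F1 animals of 129X1/SvJ X MSM/Ms, and the labels spell out neither S, 2n nor 4n. In mouse ESC work, 2i commonly names a culture medium with inhibitors of the kinases MEK and GSK3, but no culture conditions, embryo ages or numbers of animals are given in the labels. The number after the group name in the titles was 15 on both the 2i ESC and the 2n 2i MEF array, 2 on the 4n 2i MEF array, 36 on the S ESC array and 4 on the control MEF array.

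When mouse ESCs leave the naive state, they pass through a formative and a primed stage that correspond to the epiblast of the implanting embryo. The transcription factors Otx2 and Pou3f1 (also called Oct6) mark that exit from the naive state. Nodal, a ligand of the TGF-beta family, signals through activin receptors and Smad proteins, patterns the epiblast and induces its own secreted inhibitors, Lefty1 and Lefty2. Cells of the primitive streak then use T, Eomes and Mixl1 to form mesoderm and definitive endoderm, while the zinc finger factors Gata4 and Gata6 act in primitive endoderm and in heart and lateral mesoderm.

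Values are linear intensities as deposited, and differences are on the scale of log2(intensity + 1). Each array was given a floor, which was the middle value over its probe sets that name a gene, between 218 and 240.1 intensity units; it is a working limit and not a detection call. ESCs were compared with MEFs by limma over 11855 genes at or above the floor on at least 1 array, and a call needed an adjusted p (Benjamini-Hochberg) below 0.05 together with a difference of 2-fold or more. The other comparisons set 1 array against another, so they have no replicate check and no test, and a gene was counted there at 2-fold if the brighter of the pair reached its floor. In such bulk RNA, fewer cells of a type and less RNA per cell cannot be told apart.

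Markers went with the labelled cell types. All 10 pluripotency markers were at or above the floor on both ESC arrays and 2 of 10 on each MEF array, with summed intensities of 60172 to 63184 on ESC arrays and 2220 to 2298 on MEF arrays. All 10 fibroblast markers were at or above the floor on each MEF array, against 3 and 5 on the 2i and S ESC arrays. Many deposited values were exactly the same on different MEF arrays: 45.4% of probe sets for 2n 2i and control MEFs, 37.9% for 4n 2i and control MEFs and 37.4% for 4n 2i and 2n 2i MEFs. This held for 1.19% of probe sets on the ESC pair and for 0 between any ESC and any MEF array. Where it holds, the spread among MEFs is not measured, and an adjusted p rests on the spread of the ESC arrays and of other genes.

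Of the 9 regulators measured, 8 were at or above the floor on at least 1 array, all except Mixl1. On each ESC array 8 of the 9 stood at or above it, against 2 of the 9 on each MEF array. By its definition, the floor is reached by 50% of the probe sets that name a gene on each array. Otx2, Pou3f1, Nodal, Lefty1 and Lefty2 were past the floor only through the ESC arrays. In ESCs against MEFs, 5 of the 8 were called higher (Otx2, Pou3f1, Nodal, Lefty1 and Lefty2), beside 16.6% of all genes tested, and 0 were called lower, beside 16.2%. Their median difference was 2.48, beside 0.058 over all genes tested. Both ESC arrays lay above all MEF arrays for 6 of the 8, beside 41.6% of all genes, and below all of them for 1 of the 8 (Gata6), beside 36.2%.

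**Figure D1:**
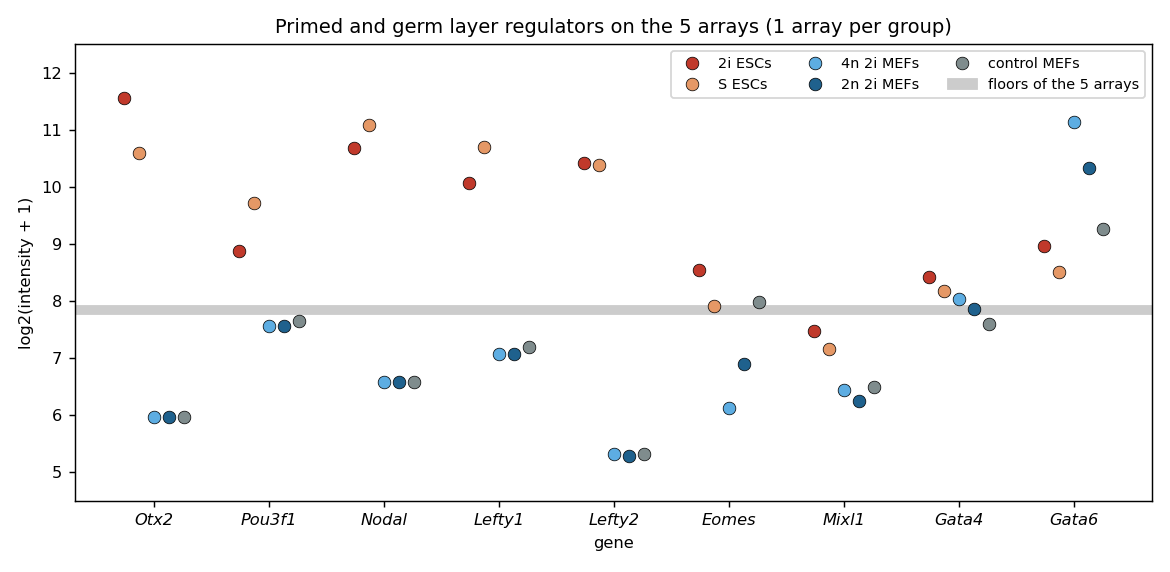
Level of each measured regulator on each array, as log2(intensity + 1), 1 point per array with no error bars since each group has 1 array; the grey band spans the floors of the 5 arrays. Otx2, Nodal, Lefty1 and Lefty2 stand far apart between ESC and MEF arrays, Gata6 is highest on the 4n 2i MEF array, and Mixl1 is below the band on every array.

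Otx2 (Entrez Gene 18424, chromosome 14), a homeobox factor of the epiblast and forebrain, had 2991 intensity units in 2i ESCs and 1544 in S ESCs, against 61.9 in 4n 2i MEFs, 61.9 in 2n 2i MEFs and 61.9 in control MEFs. The groups did not overlap, and the 3 MEF values were the same number. On the log2 scale Otx2 averaged 11.07 ± 0.67 in ESCs (SD, n = 2) and 5.98 in MEFs (n = 3, no spread). The difference of 5.09 (SE 0.30), or 34.2-fold, was called (limma adjusted p = 0.000577). Since the MEF values lay under the floor, a more cautious reading is that the dimmer ESC array was 6.64 times the highest MEF floor. Between the ESC arrays Otx2 was 1.94-fold higher in 2i ESCs (log2 difference 0.95), just short of 2-fold. A difference of that size in either direction was seen in 6.02% of 10493 genes.

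The sequence at the first of 4 annotated Otx2 starts is shown because Otx2 is among the regulators furthest apart between the cell types. It is RefSeq sequence of build GRCm38.p6, chr14:48667595-48667894, minus strand, 250 bases before to 50 after the start, with capitals for matches to AATNNACA (the Foxh1 motif, here on the other strand, its first base 105 before the start) and TATAAA (192 before the start).
Otx2 start 1: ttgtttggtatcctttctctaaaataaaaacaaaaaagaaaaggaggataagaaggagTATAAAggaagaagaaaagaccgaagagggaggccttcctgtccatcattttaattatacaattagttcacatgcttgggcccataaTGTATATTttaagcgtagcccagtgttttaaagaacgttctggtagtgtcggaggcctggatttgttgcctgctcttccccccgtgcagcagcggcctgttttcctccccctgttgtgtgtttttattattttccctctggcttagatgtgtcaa

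The search covered both strands of each window. Its motifs were AATNNACA for FOXH1, the letters TAATCC as the motif bound by OTX proteins, and GGTGTGA as the motif bound by T-box proteins. Of general promoter elements it took TATAAA for the TATA box, the letters GGGCGG for the box named after them, and the CCAAT box. The FOXH1 letters occur in 12.1% of 32544 such windows and TATAAA in 13.6%, so each match is common and describes letters only. Whether Foxh1, a partner of Smads in Nodal signalling, acts on Otx2 was not tested. Overlapping windows at the first and second Otx2 starts share the same FOXH1 match, and the other Otx2 windows have none. The third Otx2 window holds 1 OTX match, on the other strand, 211 bases before its start; such letters occur in 7.06% of windows. The 4 windows hold 6 to 16 CpG sites, beside a median of 7 over all windows. Of the 10 regulators, 4 (Otx2, T, Eomes and Nodal) had a window in the sequence table.

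Pou3f1 (Entrez Gene 18991, chromosome 4), a POU factor of the formative epiblast and of early neural cells, had 470.0 intensity units in 2i ESCs and 835 in S ESCs, against 187.6 in 4n 2i MEFs, 188.2 in 2n 2i MEFs and 199.2 in control MEFs. Both ESC arrays were above every MEF array, and all 3 MEF values lay under the floor. It averaged 9.29 ± 0.59 in ESCs (SD, n = 2) and 7.59 ± 0.048 in MEFs (SD, n = 3), a difference of 1.70 (SE 0.26), or 3.26-fold (limma adjusted p = 0.00662). The dimmer ESC array was 2.02 times the highest MEF floor. Unlike the other called regulators, Pou3f1 had a different value on each MEF array. Between the ESC arrays it ran opposite to Otx2, being 1.77-fold lower in 2i ESCs (log2 difference -0.83), a size that 8.06% of genes reached in either direction.

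Nodal (Entrez Gene 18119, chromosome 10) had 1629.9 intensity units in 2i ESCs and 2156 in S ESCs, against 94.6 in 4n 2i MEFs, 94.6 in 2n 2i MEFs and 94.6 in control MEFs. Both ESC arrays lay far above the MEF arrays, which again shared 1 value. Its means were 10.87 ± 0.29 in ESCs (SD, n = 2) and 6.58 in MEFs (n = 3, no spread), a difference of 4.29 (SE 0.14), or 19.6-fold (limma adjusted p = 0.000225). The dimmer ESC array was 7.01 times the highest MEF floor. Between 2i and S ESCs Nodal differed by -0.40, short of 2-fold.

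The sequence at the Nodal start is shown as the ligand's own promoter (RefSeq, GRCm38.p6, chr10:61417722-61418021, plus strand), with capitals for its only match among the motifs searched, CCAAT, 194 bases before the start.
Nodal: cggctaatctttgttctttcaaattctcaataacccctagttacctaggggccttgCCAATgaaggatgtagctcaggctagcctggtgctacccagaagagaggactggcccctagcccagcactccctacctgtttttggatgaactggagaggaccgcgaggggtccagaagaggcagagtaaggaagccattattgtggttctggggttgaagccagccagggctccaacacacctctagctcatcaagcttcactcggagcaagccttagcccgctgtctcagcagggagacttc

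CCAAT or its reverse occurs in 37.4% of all windows. The Nodal window holds 5 CpG sites.

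Lefty1 (Entrez Gene 13590, chromosome 1), a secreted Nodal inhibitor, had 1069 intensity units in 2i ESCs and 1654 in S ESCs, against 134 in 4n 2i MEFs, 134 in 2n 2i MEFs and 145 in control MEFs. Both ESC arrays were high and the groups did not overlap. Lefty1 averaged 10.38 ± 0.44 in ESCs (SD, n = 2) and 7.11 ± 0.067 in MEFs (SD, n = 3), a difference of 3.26 (SE 0.21), or 9.60-fold (limma adjusted p = 0.000686), and it was 1.55-fold lower in 2i than in S ESCs (log2 difference -0.63). The dimmer ESC array was 4.60 times the highest MEF floor.

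Lefty2 (Entrez Gene 320202, chromosome 1), the second Lefty inhibitor, had 1363 intensity units in 2i ESCs and 1339 in S ESCs, against 38.8 in 4n 2i MEFs, 37.8 in 2n 2i MEFs and 38.8 in control MEFs. The ESC arrays were nearly equal, with a log2 difference of 0.027 between 2i and S ESCs. Lefty2 averaged 10.40 ± 0.019 in ESCs (SD, n = 2) and 5.30 ± 0.021 in MEFs (SD, n = 3), a difference of 5.10 (SE 0.077), or 34.3-fold (limma adjusted p = 7.86e-05). The dimmer ESC array was 5.75 times the highest MEF floor. Lefty1 and Lefty2 are near-identical copies, and whether the probes of each also bind the other's RNA was not tested.

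**Figure D2:**
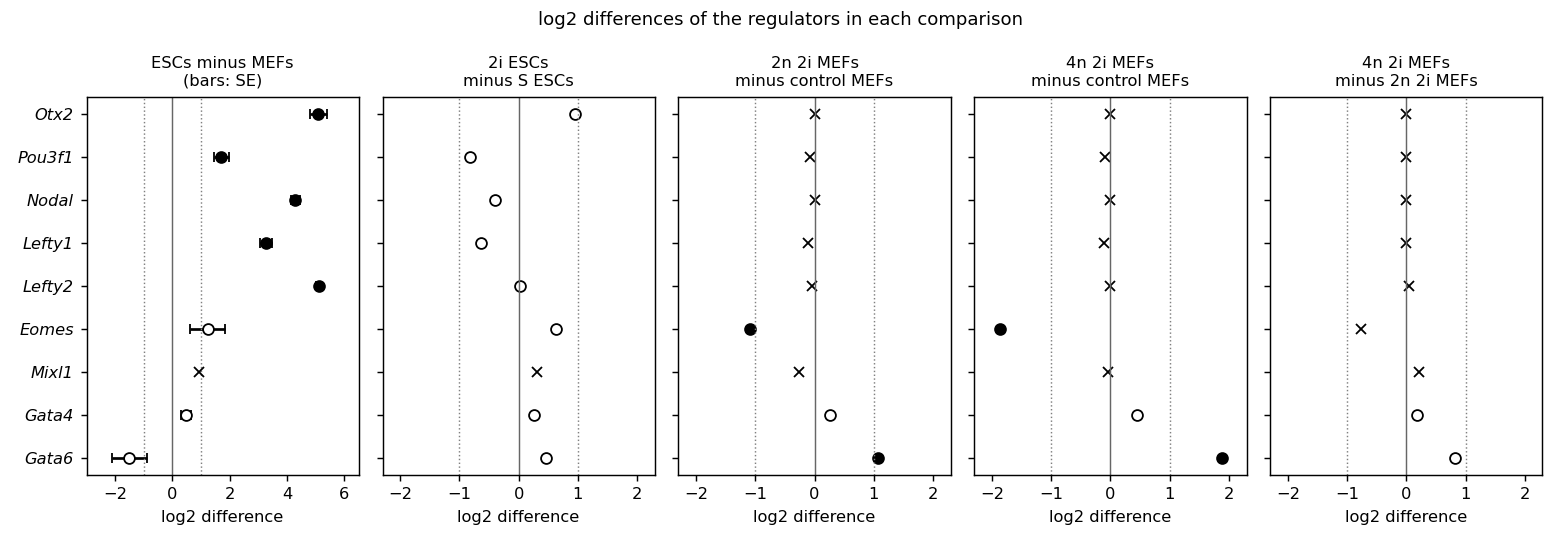
log2 differences of the 9 measured regulators in the 5 comparisons, with the bars in the first panel showing the SE from limma and dotted lines at 2-fold. Filled points were called or reached 2-fold, open points did not, and crosses mark genes below the floor; the first panel has 5 filled points, and in the MEF panels against control only Gata6 and Eomes are filled, Eomes with its 4n 2i and 2n 2i MEF values under the floor.

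The Nodal pathway, with Nodal, Lefty1 and Lefty2 counted again, was followed in lists of ligands, receptors, transducers and inhibitors. Their counts in ESCs against MEFs stand beside 16.6% of all genes tested called higher and 16.2% called lower. Of 6 ligands and convertases past the floor, 3 rose in ESCs against MEFs, Nodal among them, and 2 fell. Gdf3, a Nodal-related ligand, rose by 4.91 (SE 0.14, limma adjusted p = 0.000174) and the proprotein convertase gene Pcsk6 by 1.68. The activin subunit gene Inhba fell by 4.81 (SE 0.97, limma adjusted p = 0.0137) and Furin, another convertase, fell by 1.83. Nodal and Gdf3 were past the floor only through the ESC arrays, where they were brighter.

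Of 4 receptor genes past the floor, 3 rose in ESCs and 1 fell. Tdgf1, the co-receptor also called Cripto, had 10214 intensity units in 2i ESCs and 9792 in S ESCs, against 67.9 on all 3 MEF arrays. Its difference was 7.18 (SE 0.078, limma adjusted p = 5.61e-05), and the activin receptor genes Acvr1b and Acvr2b rose by 1.49 and 1.23. Acvr2a, a type II receptor, fell by 1.87. Cfc1 and Acvr1c were below the floor on every array. Tdgf1 and Acvr2b were past the floor only through the ESC arrays and Acvr2a only through the MEF arrays. Nothing is read from the receptor counts.

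Foxh1, the DNA-binding partner of Smads, was the only 1 of 4 transducers called. It had 946 intensity units in 2i ESCs and 1403 in S ESCs, against 63.6 on all 3 MEF arrays, a difference of 4.16 (SE 0.19, limma adjusted p = 0.00035). Smad2, Smad3 and Smad4 had differences of -0.16, -0.62 and -0.12. None of those 3 was called. Among 9 inhibitors past the floor, 3 rose (Lefty1, Lefty2 and Dact2, at 1.90), 1 fell (Fst, which encodes the activin-binding follistatin, at -2.32) and 5 were not called. Foxh1, Lefty1, Lefty2 and Dact2 were past the floor only through the ESC arrays, where they were brighter. Cer1, a secreted Nodal antagonist, lay between 56.3 and 64.3 intensity units on all 5 arrays.

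**Figure D3:**
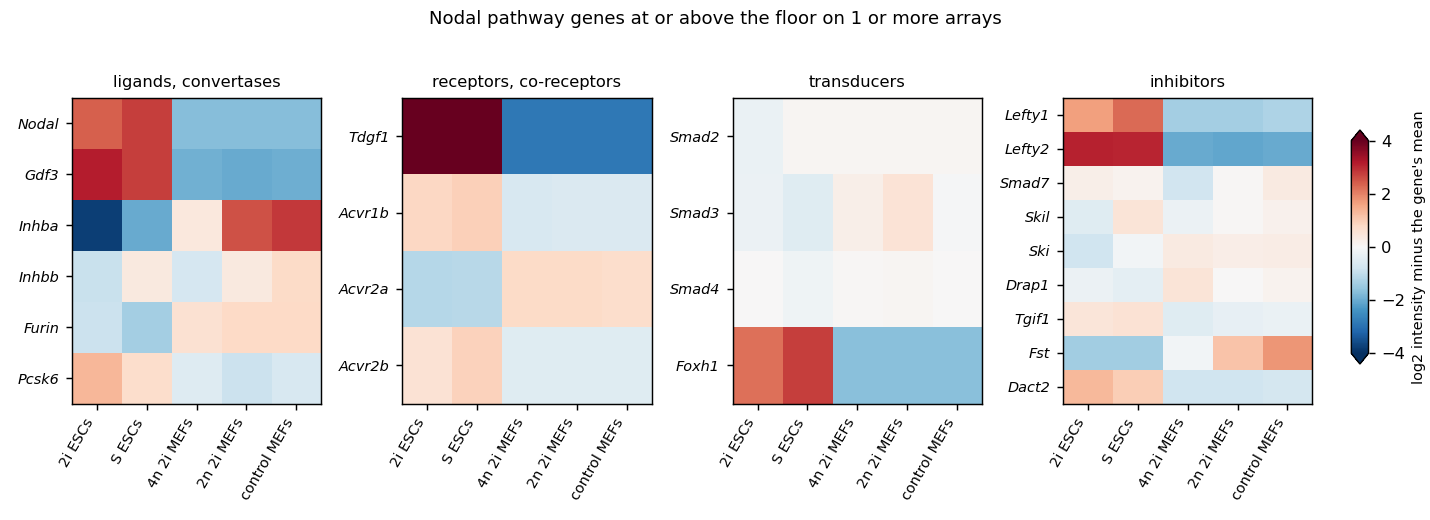
Nodal pathway genes past the floor, with each array's log2(intensity + 1) minus the gene's mean over the 5 arrays (red higher, blue lower, colours saturating at ±4). Nodal, Gdf3, Tdgf1, Foxh1, Lefty1 and Lefty2 are red on both ESC arrays and blue on the 3 MEF arrays, while Inhba and Fst run the other way.

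Between 2i and S ESCs, 0 of 8 regulators past the floor reached 2-fold in either direction, beside 2.78% of all genes higher and 2.54% lower in 2i ESCs. Otx2 came closest on the higher side and Pou3f1 on the lower. Of 15 epiblast genes past the floor, 0 were higher and 3 were lower in 2i ESCs by 2-fold, with a list median of -0.47 beside -0.039 over all genes. Dnmt3b, a de novo DNA methyltransferase of the epiblast, had 373 intensity units in 2i ESCs and 1667 in S ESCs (log2 difference -2.16). Dnmt3a, its relative, differed by -1.09 and the HMG-box gene Sox4, which had 1210.4 to 1592 intensity units on the MEF arrays, by -1.13. Fgf5, a growth factor gene of the formative epiblast, had 180.2 and 359 intensity units in 2i and S ESCs, a difference of -0.99 that missed the threshold. In 2i ESCs, Fgf5 and Sox4 (183 intensity units) lay under the floor.

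In the Nodal lists, the activin subunit genes Inhba (-1.74) and Inhbb (-1.28) were lower in 2i ESCs. Both lay under the floor there, at 77.2 and 194 intensity units, against 260 and 474 in S ESCs. No receptor, transducer or inhibitor reached 2-fold. Skil, a negative regulator of Smads, came to -0.999 without reaching the threshold. Fibroblast markers moved the same way between these arrays. Of 5 past the floor, 0 were higher and 2 were lower in 2i ESCs, beside 2.78% and 2.54% of all genes. Their median was -0.63, beside -0.039 over all genes. The 10 markers summed to 2173 in 2i ESCs and 3344 in S ESCs. The 2 lower ones were Dcn, which encodes the matrix protein decorin (80.8 intensity units in 2i ESCs and 307 in S ESCs), and the mesenchymal homeobox gene Prrx1 (93.2 in 2i ESCs and 335 in S ESCs). Both lay under the floor in 2i ESCs and entered only through the S ESC array, whose floor was 239. Inhba was far brighter on the MEF arrays, at 1400 to 7488. The part of such cells in the differences of Inhba, Inhbb and the epiblast genes was not tested.

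In ESCs against MEFs, the epiblast list as a whole had 16 genes past the floor, of which 10 were called higher and 2 lower, beside 16.6% and 16.2% of all genes tested, with a median of 1.97, beside 0.058. Beside Otx2 and Pou3f1, which are counted here again, the higher genes were Utf1 (6.49), Zic5 (4.46), Zic2 (3.76), Etv5 (3.06), Dnmt3b (2.89), Tcf15 (2.21), Lef1 (1.98) and Foxd3 (1.95). Otx2, Pou3f1, Utf1, Zic5, Dnmt3b and Tcf15 were past the floor only through the ESC arrays, where they were brighter. The count and median are therefore partly set by the floor. Cdh2, which encodes N-cadherin, fell by 2.92 and Sox4 fell by 2.29; both are also made by mesenchymal cells.

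Eomes (Entrez Gene 13813, chromosome 9), a T-box factor of the primitive streak and of trophoblast, was low throughout. It had 371 intensity units in 2i ESCs and 240.0 in S ESCs, against 68.6 in 4n 2i MEFs, 118 in 2n 2i MEFs and 252 in control MEFs. The control MEF value lay between those of the ESC arrays, so the groups overlapped. The S ESC value was barely above its floor of 239. The SD of Eomes on the log2 scale was 0.44 over ESCs (n = 2) and 0.94 over MEFs (n = 3), and the difference of means of 1.23 (SE 0.61) was not called (limma adjusted p = 0.146). Without the control MEF array it was 1.72 and passed (limma adjusted p = 0.0330), so that array decides the call.

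The sequence at the Eomes start is shown because Eomes was one of the regulators that differed among the MEF arrays (RefSeq, GRCm38.p6, chr9:118477939-118478238, plus strand). Capitals mark CCAAT, found 127 and 84 bases before the start; no other motif of the search has a match in this window, which holds 10 CpG sites.
Eomes: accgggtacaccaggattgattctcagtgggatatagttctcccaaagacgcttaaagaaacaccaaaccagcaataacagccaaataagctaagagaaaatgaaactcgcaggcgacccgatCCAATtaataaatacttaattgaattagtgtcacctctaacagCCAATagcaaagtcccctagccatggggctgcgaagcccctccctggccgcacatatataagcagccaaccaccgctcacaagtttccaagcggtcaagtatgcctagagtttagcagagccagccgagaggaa

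Mixl1 (Entrez Gene 27217, chromosome 1), a homeobox factor of the streak, had 176 intensity units in 2i ESCs and 142 in S ESCs, against 86.2 in 4n 2i MEFs, 74.6 in 2n 2i MEFs and 89.2 in control MEFs. All 5 values lay under the floor, so Mixl1 entered no test and no difference is drawn from them. Of the 16 streak and mesendoderm genes measured, 6 were past the floor (Eomes, Gsc, Mesp2, Fgf8, Cdx1 and Msgn1). Of those, 0 were called in either direction, beside 16.6% of all genes tested called higher and 16.2% lower. Gsc, a homeobox gene of the organizer, had 394 intensity units in 2i ESCs and 295 in S ESCs, against 214 in 4n 2i MEFs, 216 in 2n 2i MEFs and 214 in control MEFs. Its difference of 0.66 passed the adjusted p (limma, 0.0182) but not 2-fold. The same held for Mesp2 (0.89), Msgn1 (0.58), Cdx1 (0.48) and Fgf8 (0.46), which were also higher in ESCs.

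Gata4 (Entrez Gene 14463, chromosome 14) had 342 intensity units in 2i ESCs and 286 in S ESCs, against 261 in 4n 2i MEFs, 232 in 2n 2i MEFs and 192 in control MEFs. Both ESC arrays were above all MEF arrays, but the steps were small and most values lay near the floor. Its mean was 8.29 ± 0.18 in ESCs (SD, n = 2) and 7.83 ± 0.22 in MEFs (SD, n = 3), and the difference of 0.46 (SE 0.17) was not called (limma adjusted p = 0.0778).

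Gata6 (Entrez Gene 14465, chromosome 18) was the only regulator at or above the floor on all 5 arrays and the only 1 brighter on every MEF array than on both ESC arrays. It had 499 intensity units in 2i ESCs and 363 in S ESCs, against 2259 in 4n 2i MEFs, 1281 in 2n 2i MEFs and 609.9 in control MEFs. The MEF arrays were far apart, with 4n 2i MEFs highest and control MEFs lowest. Gata6 averaged 8.74 ± 0.32 in ESCs (SD, n = 2) and 10.24 ± 0.95 in MEFs (SD, n = 3), and the difference of -1.50 (SE 0.60) was not called (limma adjusted p = 0.0900). Without the control MEF array the difference was -2.00 and passed (limma adjusted p = 0.0211).

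The other lineage genes were followed by list. Of 8 endoderm genes past the floor, 2 rose in ESCs against MEFs and 2 fell, beside 16.6% and 16.2% of all genes tested. Nothing is read from these counts. The higher genes were the laminin gene Lama1 (2.23) and the nuclear receptor gene Hnf4a (1.40). The lower genes were the endocytic adaptor gene Dab2 (-4.22) and the collagen gene Col4a1 (-2.12). Of the 10 markers of primitive or visceral endoderm, 1 was at or above the floor in 2i ESCs and 3 in S ESCs, against 1, 1 and 2 in 4n 2i, 2n 2i and control MEFs. Sox17, Afp and Ttr were below the floor on every array.

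Of 11 cardiac and lateral mesoderm regulators past the floor, 0 rose and 8 fell in ESCs, beside 16.6% and 16.2% of all genes tested, with a median of -1.78, beside 0.058. Among them Osr1 fell by 4.65, Meis1 by 3.62, Tbx5 by 2.39 and Mef2c fell by 2.19. Gata4, Gata6 and the heart factor Nkx2-5 were the 3 not called. All 8 that fell were at or above the floor on MEF arrays only, so each entered through the cell type where it was brighter. Nothing is read from that count or median. Of 6 neuroectoderm genes past the floor, 1 was called, Zic1, which fell by 3.16. Zic1 too was past the floor on MEF arrays only.

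**Figure D4:**
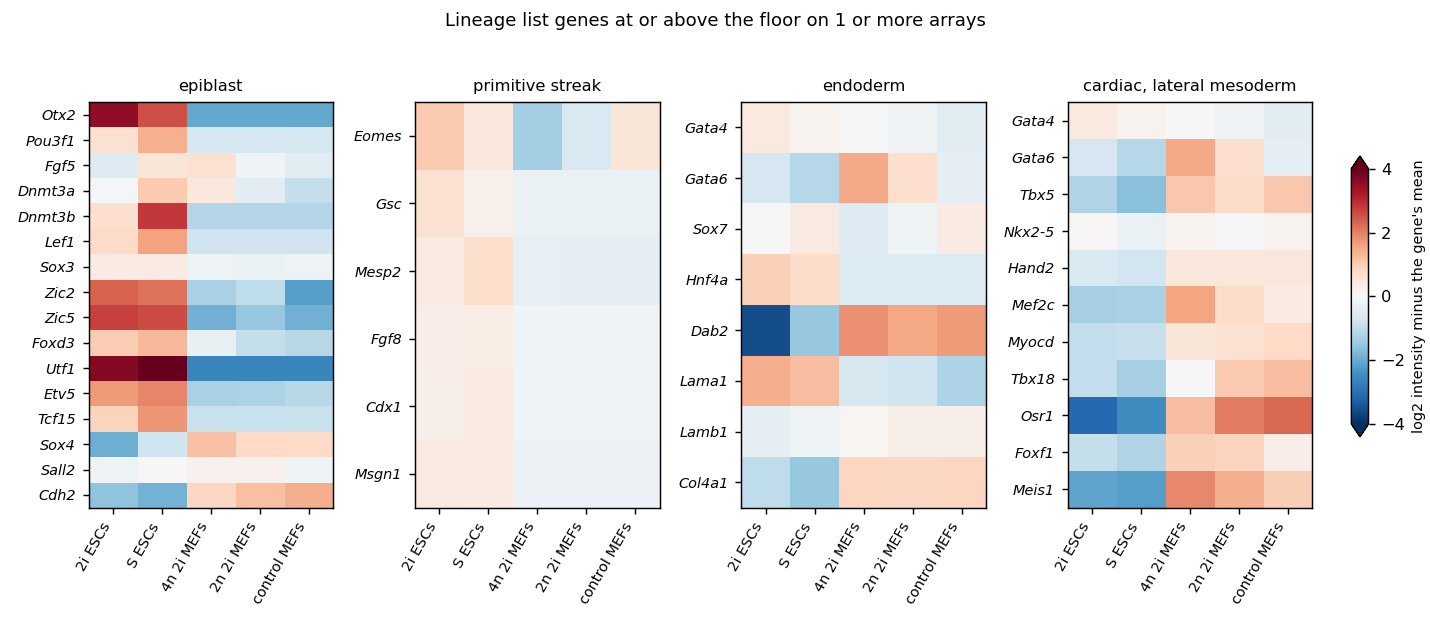
Lineage genes past the floor, with each array's log2(intensity + 1) minus the gene's mean over the 5 arrays (red higher, blue lower, colours saturating at ±4). Most epiblast genes are red on the ESC arrays, streak genes vary little apart from Eomes, and lateral mesoderm genes are mostly blue on the ESC arrays.

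The regulators of the epiblast and Nodal pathway could not be compared among the MEF arrays. Otx2, Pou3f1, Nodal, Lefty1, Lefty2 and Mixl1 were below the floor on all 3, and only Eomes, Gata4 and Gata6 could enter a comparison with control MEFs. The comparisons of 4n 2i and of 2n 2i MEFs share the control array, so a deviation of that array appears in both.

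Gata6 was higher than in control MEFs by 1.89 (3.70-fold) in 4n 2i MEFs and by 1.07 (2.10-fold) in 2n 2i MEFs. It was the 1 regulator of 3 higher by 2-fold in each, beside 5.26% of all genes in 4n 2i MEFs and 1.48% in 2n 2i MEFs. Eomes was lower than in control MEFs by 3.64-fold in 4n 2i MEFs (log2 difference -1.87) and by 2.13-fold in 2n 2i MEFs (log2 difference -1.09). Only the control array had Eomes at or above the floor, at 252 intensity units over a floor of 218, so Eomes entered these comparisons only through the array where it was brightest. That value was 1.09 times the floor of the 4n 2i MEF array and 1.12 times that of the 2n 2i MEF array, so the folds rest on values under the floor. Eomes was the 1 of 3 counted lower in each, beside 3.44% of all genes in 4n 2i MEFs and 0.434% in 2n 2i MEFs, and nothing is read from that count. Gata4 differed from control MEFs by 0.44 in 4n 2i MEFs and by 0.27 in 2n 2i MEFs, under 2-fold in both.

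Between 4n 2i and 2n 2i MEFs, Gata6 differed by 0.82 (1.76-fold) and Gata4 by 0.17. Neither of these 2 reached 2-fold, beside 3.34% of all genes higher and 2.36% lower in 4n 2i MEFs. Eomes was under the floor on both arrays.

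Markers of other cell types moved on the same arrays. Of 8 mesothelial markers, 8 were at or above the floor in 4n 2i MEFs and 7 in 2n 2i MEFs, against 3 in control MEFs. Their summed intensity was 9529 in 4n 2i MEFs and 5860 in 2n 2i MEFs, against 2786 in control MEFs. Upk3b, a uroplakin of mesothelium, had 2387 intensity units in 4n 2i MEFs and 1195 in 2n 2i MEFs, against 160.0 in control MEFs. Wt1, a mesothelial transcription factor, had 681, 404 and 150 on the 4n 2i, 2n 2i and control arrays. The other way, Bnc1, a zinc finger gene, had 561 and 510 in 4n 2i and 2n 2i MEFs, against 1083 in control MEFs, and the keratin gene Krt19 had 491 and 588, against 621 in control MEFs. Upk3b, Wt1, Bnc1 and Krt19 were picked out after their values were seen. Macrophage markers summed to 12153 in 4n 2i MEFs and 1320 in 2n 2i MEFs, against 1740 in control MEFs, with 5, 2 and 2 of 8 at or above the floor. Trophoblast markers, relevant to Eomes, were at or above the floor for 1, 1 and 0 of 7. That marker was Krt7, a keratin gene, at 606, 336 and 188 on the 4n 2i, 2n 2i and control arrays. It was lowest in control MEFs, where Eomes was highest among the MEF arrays. The part of such cells in the Gata6 and Eomes values was not tested.

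**Figure D5:**
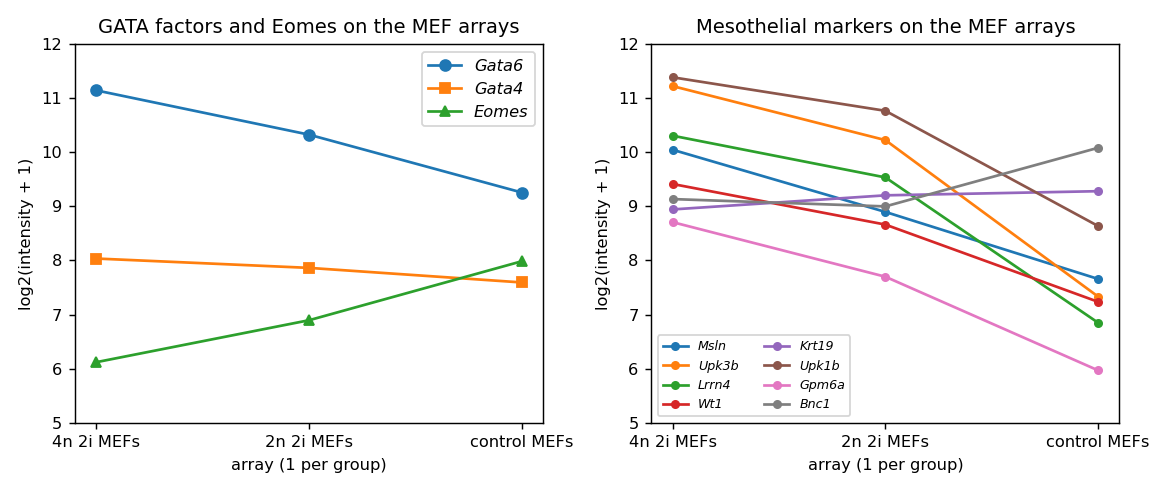
Left, log2(intensity + 1) of Gata6, Gata4 and Eomes on the 3 MEF arrays; right, the 8 mesothelial markers on the same arrays, 1 point per array and lines drawn only to join a gene's points. Gata6 and 6 of the 8 markers are highest in 4n 2i MEFs and lowest in control MEFs, and Eomes runs the other way.

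In the Nodal lists, activin genes were lower in 4n 2i MEFs. Inhba had 1400 intensity units in 4n 2i MEFs and 6128 in 2n 2i MEFs, against 7488 in control MEFs. That was 2.42 lower on the log2 scale in 4n 2i MEFs than in control MEFs and 2.13 lower than in 2n 2i MEFs. Inhbb differed by -1.46 and Fst by -1.86 between 4n 2i and control MEFs, and Smad7, an inhibitory Smad, by -1.14. The Inhbb value in 4n 2i MEFs, 225 intensity units, lay under that array's floor of 233. In 2n 2i against control MEFs, none of the 4 ligand genes or 6 inhibitors past the floor reached 2-fold. Of 10 epiblast genes past the floor in 4n 2i against control MEFs, Dnmt3a (1.38) and Fgf5 (1.01) were higher, beside 5.26% of all genes. Of 9 in 2n 2i against control MEFs, Zic2 was higher (1.19), beside 1.48%. Fgf5 and Zic2 had 193 and 126 intensity units in control MEFs, under the floor of 218, so their differences rest on values under it.

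Genes with the most similar profiles over the 5 arrays were taken by the smallest Euclidean distance between mean-centred log2 values, among 11352 genes. They describe likeness on 5 arrays of 2 cell types, where many genes share the same step. For Nodal they were Mreg (distance 0.14), Zfp980 (0.17) and Foxh1 (0.19), the last being the pathway's own transcription factor. For Otx2 they were Bex4 (0.23), Mcf2 (0.26) and Timm8a2 (0.27), and for Pou3f1 they were Hpca (0.080), Plcg2 (0.11) and Tcp11 (0.12). Lefty1 lay nearest to Stag3 (0.13), Trim71 (0.16) and Epop (0.17), and Lefty2 to Lrrc2 (0.077), Morc1 (0.21) and Amt (0.29). Gata6 and Eomes had no such close profile: the nearest were Sardh (0.34), Tspan18 (0.37) and Dlx5 (0.41) for Gata6 and Tmc7 (0.52), Naaa (0.61) and Hoxc13 (0.65) for Eomes.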

How the data were processed

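Per the labels' protocols, column-purified total RNA was fragmented, biotin-labelled and put on the arrays. A single table of intensity values on a linear scale was deposited by the authors, 1 column per array. Its background correction, summarisation and normalization are not given in the sources used here, nor whether ESC and MEF arrays were processed together. The column medians were 170.2 to 192 intensity units. Arrays have no sequencing depth, and their number limits the precision.

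Symbols came from the platform annotation, where 21789 probe sets had 1 symbol, 1621 several and 5443 none, and were updated by Entrez Gene number to RefSeq GRCm38.p6 (21698 matched). Several probe sets existed for 999 genes, and the brightest stood for each. ESCs (2 arrays) and MEFs (3 arrays) were compared with limma 3.58.1 (lmFit, eBayes; R 4.3.3) on log2(value + 1), with 3 residual degrees of freedom and conditions of a cell type standing as its replicates, so p-values measure only the spread between these arrays. The step was tested on simulated data. Other steps ran in Python 3.11.15 with pandas 2.3.3, numpy 2.4.6 and, for figures, matplotlib 3.10.9. Promoter windows were RefSeq sequences. The members and the 13 pathway and family lists and 8 marker lists were chosen with earlier results of these data known. List genes were named if they passed the threshold, otherwise at most the 4 largest differences per list. The 3 nearest profiles were named for members past the floor with a range of at least 1. Cer1, Cfc1, Acvr1c, Fgf5, Fgf8, Cdx1, Gsc, Skil, Upk3b, Wt1, Bnc1, Krt19, Dcn and Prrx1 were named after their values were seen. Alternatives were no floor or a 75th-percentile floor, quantile normalization, the mean of probe sets, a pseudocount of 16, a 3-fold threshold, an intensity trend with a robust prior, omission of genes with identical MEF values and omission of each array.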

Additional observations from a re-analysis of the deposited data

How the results depend on the processing

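Over the alternatives that kept a regulator in its comparison, 184 values of single regulators were recomputed. Of these, 180 kept their direction and side of the threshold, 2 passed it newly, 2 no longer reached it and 0 reversed. Those passing newly were Eomes (1.72) and Gata6 (-2.00) in ESCs against MEFs without the control MEF array. Those lost were Eomes and Gata6 in 2n 2i against control MEFs at 3-fold, leaving 0 regulators there, against 2 at 2-fold. Regulators that a setting took out of a comparison are not among the 184 values, nor in the ranges of adjusted p below. Many of the 184 differences could not change. Each regulator had 1 probe set, so the mean of probe sets gave the same value, and another floor or fold threshold left the difference as it was. The 180 is therefore no measure of stability. Leaving out each array in turn gave 2983 to 3876 genes called in ESCs against MEFs, against 3896 with all arrays, and 5 to 7 regulators, against 5. With 1 ESC array left, it is assumed to vary like the MEFs. Omitting genes with identical values on any pair of MEF arrays left 1 regulator called, Pou3f1, since the other 4 are such genes. A 75th-percentile floor, which tests fewer genes, gave 2391 genes called in ESCs against MEFs and dropped Pou3f1, Eomes and Gata4. It gave 195 genes at 2-fold in 2i against S ESCs (559 otherwise), 79 in 2n 2i against control MEFs (194), 489 in 4n 2i against control MEFs (896) and 298 in 4n 2i against 2n 2i MEFs (586), with 1 regulator, Gata6, in each comparison with control MEFs. At 3-fold these counts were 2106, 182, 53, 379 and 204, in the same order. Pair comparisons cannot lose an array. No paired analysis was possible because each group has 1 array. The limma adjusted p over all alternatives ranged from 0.033 to 0.492 for Eomes, 0.0211 to 0.370 for Gata6, 0.0507 to 0.322 for Gata4, 0.00108 to 0.0285 for Pou3f1, and up to 0.00663 for the other 4 regulators.

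The limits are the single array per group, MEF values that are identical across arrays, and a floor that is not a detection call. Every regulator called in ESCs lay under the floor on all MEF arrays.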

Other observations

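The families of the regulators held other genes that differed. Family counts in ESCs against MEFs stand beside 16.6% of all genes tested called higher and 16.2% called lower. Among 5 GATA and cofactor genes past the floor in 2i against S ESCs, Gata2 and Gata3 were higher in 2i ESCs, beside 2.78% of all genes. Gata2, a factor of blood and trophoblast, had 739.6 intensity units in 2i ESCs and 239 in S ESCs, a log2 difference of 1.62. Gata3, which acts in trophoblast and T cells, had 469 in 2i ESCs and 152 in S ESCs, a difference of 1.61. Each rests on 1 array a group, with no test. Both S ESC values lay under that array's floor, Gata2 only just, so these genes entered through the 2i ESC array alone. Zfpm2, a cofactor of Gata4, was the 1 of 6 genes of that list called in ESCs against MEFs, at -2.60 (limma adjusted p = 0.0026). It was past the floor on MEF arrays only.

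Of 10 T-box genes past the floor, 3 were called higher in ESCs than in MEFs and 3 lower, among them Tbx3 (2.21), a factor of the naive network, and Tbx15 (-4.10), a factor of mesenchyme. The 3 lower genes were past the floor on MEF arrays only, and Tbx21, among the higher genes, on the 2i ESC array only. Tbx4, a hindlimb factor, had 559 intensity units in 4n 2i MEFs and 332 in 2n 2i MEFs, against 144 in control MEFs. Pou3f4, a relative of Pou3f1, had 114 in 4n 2i MEFs, against 298 in control MEFs (log2 difference -1.37). The Tbx4 value in control MEFs and the Pou3f4 value in 4n 2i MEFs lay under the floors of those arrays, 218 and 233. Nes, which encodes nestin, had 663 in 4n 2i MEFs and 1376 in 2n 2i MEFs, against 424 in control MEFs.

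In ESCs against MEFs, 1 of 3 POU class 3 genes past the floor was called (Pou3f1) and 1 of 4 OTX and related homeobox genes (Otx2). Of 7 cardiomyocyte markers, 4 were at or above the floor in 2i ESCs and 2 in S ESCs, against 2 on each MEF array. Of 8 lymphocyte markers, 2 were at or above it in 2i ESCs and 0 on each of the other arrays.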
